A study of Mus musculus with 12 samples.

Results

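The guanylate-binding protein (Gbp) genes were followed across 4 groups of mouse monocytes. The 8 members, Gbp2, Gbp3, Gbp4, Gbp5, Gbp6, Gbp7, Gbp8 and Gbp9, were taken by gene symbol from a table of 55487 genes, and all 8 were among the 14618 genes that passed the filter on low counts. Bulk RNA-seq had been made from 50000 sorted Ly6C+ monocytes per RNA preparation (Ly6C marks classical, inflammatory monocytes), with 3 libraries in each group. WT, Mixed and KO were fetal liver monocytes and BM were bone marrow monocytes. The genotype label was KO in the KO libraries and WT in the WT, Mixed and BM libraries. By their labels the 3 KO libraries and WT 1 were E13.5 (embryonic day), the 3 Mixed libraries, WT 2 and WT 3 were E15.5, and BM had no age. The series title asks how cMaf relates to Zeb2, a zinc-finger repressor, in early blood formation. The sources used here give neither the allele of the KO libraries, nor the meaning of Mixed, nor whether a Cre line was used. The series' design text is about tissue macrophages of Z165KO mice, and the samples are labelled as monocytes.

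Guanylate-binding proteins are large GTPases of the dynamin superfamily that interferon gamma, and to a lesser degree type I interferon, induces in macrophages and monocytes. They bind to the membranes around intracellular parasites and bacteria, break them open together with the smaller immunity-related GTPases, and help bacterial products reach the inflammasome, the protease complex behind pyroptotic cell death. In the mouse the genes lie in a cluster on chromosome 3 and a cluster on chromosome 5, and mice that lack the chromosome 3 cluster control the parasite Toxoplasma gondii poorly.

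By GENCODE's gene models on GRCm38 (mm10), Gbp5 (chr3:142493978-142522344), Gbp7 (chr3:142530342-142550149), Gbp3 (chr3:142560026-142573209) and Gbp2 (chr3:142620602-142638008) lay in this order on the plus strand within 144 kb. Gbp8 (chr5:105014150-105139540), Gbp9 (chr5:105077630-105139539), Gbp4 (chr5:105115767-105139586) and Gbp6 (chr5:105270702-105293698) lay on the minus strand within 280 kb. All 8 were annotated as protein-coding. RefSeq promoter sequences (GRCm38.p6, plus strand, up to 250 bases before the start; those of Gbp5 and Gbp2 end earlier, inside annotated exon sequence) were at hand for the 4 chromosome 3 members. They are shown because these neighbours carry the same interferon motif, yet Gbp7 differed from Gbp2, Gbp3 and Gbp5 in how its level changed between groups. The windows are chr3:142496684-142496929 for Gbp5, chr3:142530086-142530335 for Gbp7, chr3:142559794-142560043 for Gbp3 and chr3:142620413-142620631 for Gbp2. Capitals mark matches to the core of the interferon-stimulated response element, GAAA, then any 2 bases, then GAAA, found here on the reverse strand.
Gbp5: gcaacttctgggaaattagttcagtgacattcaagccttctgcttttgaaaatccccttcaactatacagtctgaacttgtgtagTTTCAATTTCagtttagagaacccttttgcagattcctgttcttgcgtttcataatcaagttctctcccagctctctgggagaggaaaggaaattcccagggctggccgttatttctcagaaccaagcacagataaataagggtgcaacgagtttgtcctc
Gbp7: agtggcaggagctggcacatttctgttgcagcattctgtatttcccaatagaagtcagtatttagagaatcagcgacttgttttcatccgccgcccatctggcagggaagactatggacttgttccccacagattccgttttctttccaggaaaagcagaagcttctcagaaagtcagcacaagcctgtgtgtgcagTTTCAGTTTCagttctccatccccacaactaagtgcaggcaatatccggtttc
Gbp3: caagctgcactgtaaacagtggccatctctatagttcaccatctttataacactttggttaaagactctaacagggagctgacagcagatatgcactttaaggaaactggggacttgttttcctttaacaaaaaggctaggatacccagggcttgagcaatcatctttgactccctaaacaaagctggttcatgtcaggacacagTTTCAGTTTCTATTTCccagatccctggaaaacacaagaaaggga
Gbp2: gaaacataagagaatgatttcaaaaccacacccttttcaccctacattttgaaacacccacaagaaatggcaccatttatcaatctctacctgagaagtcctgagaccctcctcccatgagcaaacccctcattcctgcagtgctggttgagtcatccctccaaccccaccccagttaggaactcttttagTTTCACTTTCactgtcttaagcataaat

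Each of these 4 windows held the response element core, Gbp3 with 2 overlapping matches. Gbp3 had a second RefSeq promoter entry, from chr3:142560106, with 178 annotated exon bases in its window. That entry was searched too, held no match to this core, and is not shown. Counted back from -1 at the base before the start, the match lay at -59 to -50 in Gbp2, -53 to -44 in Gbp7, -45 to -36 and -39 to -30 in Gbp3, and -165 to -156 in Gbp5. Of 32851 RefSeq promoter entries searched over the same 250 bases and on both strands, 2.98% held the core. The core of the gamma-activated site, TTC, any 3 bases and GAA, a motif of interferon gamma response, matched at -245 to -237 and -52 to -44 in Gbp5 and at -106 to -98 and -87 to -79 in Gbp7, against 7.02% of all entries. These letters were not in the Gbp2 and Gbp3 windows. The RefSeq starts used for Gbp5, Gbp2 and Gbp3 lie inside the GENCODE genes, downstream of their first annotated starts.

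The chromosome 5 genes are more alike than the chromosome 3 genes. Coding sequences within the chromosome 5 cluster were 90.2 to 92.9% identical (median 90.8% over 6 pairs), against 64.8 to 78.6% within the chromosome 3 cluster (median 65.8% over 6 pairs) and 64 to 75.9% between clusters (16 pairs). Gbp3 and Gbp7 were the closest chromosome 3 pair, at 78.6%. Gbp4, Gbp8 and Gbp9 also overlap: a 60-base exon at chr5:105139480-105139539 is the first exon of the Gbp8-201 and Gbp9-202 transcripts and lies within Gbp4 exons. Of all 31-letter words in the exons of Gbp6, 57.6% also occurred in another Gbp gene, 51.4% in Gbp10, which neighbours it. That share was 31.1% for Gbp8, 18.3% for Gbp9, lower for Gbp4, and 0.195 to 5.64% for the chromosome 3 members. With 100-letter words it was 37.3% for Gbp6, 4.39% for Gbp8, 1.65% for Gbp9, 1.64% for Gbp4 and at most 0.694% for the chromosome 3 members. The deposited counts are estimates, 28.5% of the nonzero ones not whole, and how reads that fit several genes were assigned is not stated, so the split between Gbp6 and Gbp10 is the least certain.

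Total counts per library ran from 17384956 to 24473502. Zeb2 stood at 20.1 to 23.8 counts per 1e+06 (CPM) in KO, 141 to 165 in WT, 159 to 179 in Mixed and 311 to 338 in BM, so the KO libraries were low in the gene the title names. All 8 monocyte markers listed (Ly6c2, Ccr2, Csf1r, Itgam, Fcgr1, Lyz2, Cd68 and Spi1) were present in each group. Whether the 3 libraries of a group are separate animals is not stated in the labels. The p-values then measure the spread between these samples only, and that spread may be technical. A difference in a bulk sample can come from fewer cells of a type or from less RNA per cell, and these cannot be told apart here.

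Per length, Gbp7 led the family in fetal liver and Gbp3 led it in bone marrow. Deposited TPM values (transcripts per 1e+06), which allow comparison between genes, put Gbp7 first in WT at 47 ± 2.14 TPM (SD, n = 3), followed by Gbp3 at 16.7, Gbp9 at 10.1 and Gbp2 at 8.52. Gbp4 (2.79) and Gbp8 (2.34) overlapped across the WT libraries, and Gbp5 (0.827) and Gbp6 (0.361) were lowest. Mixed kept the same first 4 places, with Gbp8 and Gbp4 again overlapping. In KO the order was Gbp7 (26.6 ± 2.71 TPM), Gbp9 (15.8 ± 0.734), Gbp3 (14 ± 0.5), Gbp2, Gbp4, Gbp8, Gbp5 and Gbp6, and no neighbours overlapped. Gbp9 thus stood above Gbp3 in the KO libraries and below it in all others. In BM the order was Gbp3 (40.9 ± 0.951 TPM), Gbp7 (25.9 ± 1.8), Gbp2 (18.7 ± 1.8) and Gbp9 (11.7 ± 0.743). Gbp5, Gbp4 and Gbp6 followed between 1.65 and 1.23 TPM, with Gbp5 overlapping Gbp4 and Gbp4 overlapping Gbp6, and Gbp8 came last at 0.24 TPM.

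**Figure D1:**
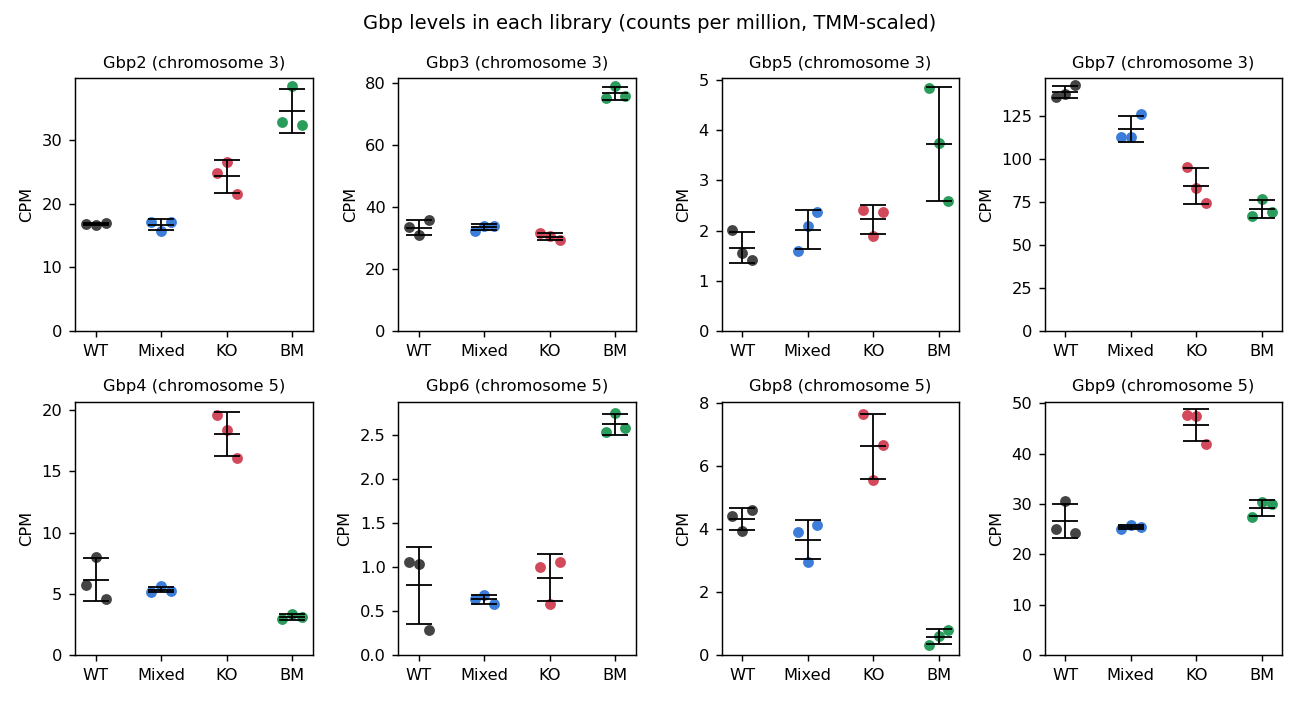
CPM (TMM-scaled, linear axes from 0) of the 8 Gbp genes, chromosome 3 members above and chromosome 5 members below; points are libraries 1 to 3 from left to right, and lines with bars give mean ± SD of 3 libraries. Gbp4 and Gbp9 were highest in the KO libraries, Gbp8 was lowest in BM at 0.33 to 0.794 CPM, and Gbp7 was highest in WT at 136 to 143 CPM.

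In KO against WT fetal liver monocytes, 4 of the 8 genes rose, Gbp4, Gbp9, Gbp8 and Gbp2, Gbp7 fell, and Gbp3, Gbp5 and Gbp6 did not pass the test. Gbp4, Gbp9 and Gbp8 belong to the chromosome 5 cluster. Across all tested genes 38.1% were called in this comparison, 18.2% higher and 19.9% lower. The median log2 fold change was 0.70 over the 4 chromosome 5 members, 0.15 over the 4 chromosome 3 members and -0.03 over all genes tested.

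Gbp4, whose product has been described as a brake on the interferon factor Irf7, was 5.75, 8.04 and 4.6 CPM in WT 1 to 3, and 19.6, 18.4 and 16.1 CPM in KO 1 to 3. Every KO library was above every WT library. The rise was 2.93-fold (log2 fold change 1.55, SE 0.165, adjusted p = 1.23e-07). Gbp9, one of the members that gather on Toxoplasma vacuoles, measured 25, 30.5 and 24.2 CPM in WT and 47.6, 47.5 and 41.9 CPM in KO. The groups did not overlap, and the rise was 1.72-fold (log2 fold change 0.78, SE 0.0912, adjusted p = 5.09e-07). Gbp8 was 4.41, 3.93 and 4.6 CPM in WT and 7.64, 5.57 and 6.68 CPM in KO. All KO values lay above all WT values, with KO 2 the lowest of them, for a 1.54-fold rise (log2 fold change 0.62, SE 0.211, adjusted p = 0.0233). That call was lost without KO 1 (adjusted p = 0.115), KO 3 (0.0575), WT 1 (0.056) or WT 2 (0.0917), and with limma on log2(TPM + 1) (0.0869). Gbp6 had only 6 to 25 counts in the WT and KO libraries and stood at 1.06, 1.03 and 0.282 CPM in WT and 1, 0.578 and 1.06 CPM in KO. The groups overlapped, and the log2 fold change was 0.17 (SE 0.419, adjusted p = 0.789).

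On chromosome 3, Gbp2, a prenylated member that controls Toxoplasma, was 16.8, 16.7 and 17 CPM in WT and 24.8, 26.5 and 21.5 CPM in KO. The WT libraries were nearly equal and all lay below the KO libraries, a 1.44-fold rise (log2 fold change 0.53, SE 0.0995, adjusted p = 0.000217). Gbp7, which has been linked to assembly of the NADPH oxidase on phagosomes, was 136, 138 and 143 CPM in WT and 95.6, 83 and 74.5 CPM in KO. It was the only member called lower, with no overlap and a 1.65-fold difference (log2 fold change -0.72, SE 0.0777, adjusted p = 1.65e-07). Gbp3, its nearest chromosome 3 relative by sequence, was 33.5, 31 and 35.8 CPM in WT and 31.6, 30.6 and 29.3 CPM in KO. These ranges overlapped (log2 fold change -0.13, SE 0.074, adjusted p = 0.173), while on the log2(TPM + 1) scale limma called Gbp3 lower (log2 difference -0.24, adjusted p = 0.0122). Gbp5, which promotes inflammasome assembly, was 2.01, 1.56 and 1.41 CPM in WT and 2.41, 1.89 and 2.37 CPM in KO. The ranges overlapped, and the log2 fold change was 0.43 (SE 0.285, adjusted p = 0.257).

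Age differed between these groups, since among these 6 libraries E13.5 was the label of all KO libraries and of WT 1 alone. Against WT 1, the KO libraries were higher in Gbp4 (16.1 to 19.6 against 5.75 CPM), Gbp9 (41.9 to 47.6 against 25 CPM), Gbp2 (21.5 to 26.5 against 16.8 CPM) and Gbp8 (5.57 to 7.64 against 4.41 CPM). Gbp7 was lower (74.5 to 95.6 against 136 CPM). An age covariate gives no separate check of this, since only WT held both labelled ages. Its age term comes from WT 1 against WT 2 and WT 3 alone. The adjusted difference between KO and WT therefore rests on WT 1 as the only WT library of the same age. In a fit of the 9 fetal liver libraries that had labelled age as a covariate, the calls for Gbp4 (log2 fold change 1.67, adjusted p = 0.000195), Gbp9 (0.88, 0.000157), Gbp2 (0.54, 0.0129) and Gbp7 (-0.67, 0.000355) held. The call for Gbp8 did not (0.61, adjusted p = 0.125). Among all genes, 3715 were called with that covariate and 5565 without it.

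Of the 8 monocyte markers, 3 were higher in KO than in WT, Ly6c2 (2.91-fold) among them, and 4 were lower, Csf1r (2.19-fold) among them. The marker calls for KO against WT stand beside 18.2% of all genes higher and 19.9% lower. Markers of other cells moved with the KO label too. The summed level of 6 conventional dendritic cell markers was 121 to 136 CPM in KO, 17.8 to 22.2 in WT, 20.7 to 25.2 in Mixed and 83 to 93 in BM, with 5 of the 6 higher in KO than WT and Cd209a lower. Cd209a made up most of the BM sum, with a mean of 65.6 CPM in BM and 0.225 CPM in KO. Against KO, 5 of the 6 were called lower in BM and 1, Cd209a, higher (32% and 31.8% of all genes). Of 5 B cell markers, 4 of them tested, only Ms4a1 was called higher (75.1 ± 4.53 CPM in KO, 0.106 ± 0.112 in WT, SD, n = 3). Cd79a, Pax5 and Ebf1 stayed under 0.5 CPM in every KO library. The 6 neutrophil markers summed to 5302 to 7370 CPM in KO and 3340 to 4829 in WT, with Ly6g and S100a8 higher. S100a8 (5698 ± 666 CPM in KO, 3057 ± 319 in WT, SD, n = 3) made up most of that sum, the other 4 markers were not called, Ngp, Ltf and Camp having log2 fold changes of -0.80, -0.54 and -0.39, and the list's median was -0.06. Endothelial markers summed to 75.1 to 80.7 CPM in KO and 17.6 to 29.9 in WT, Pecam1 (77.1 CPM in KO) making up most of it and Emcn being at 0 in KO. KO and WT overlapped in the sums of the erythroid (321 to 726 and 519 to 994 CPM), liver parenchyma (14.3 to 72.9 and 7.91 to 58.8) and tissue macrophage markers (183 to 217 and 169 to 212), and T and NK cell markers summed to at most 0.338 CPM with Cd3e at 0 in both. The part of these differences in the Gbp values was not tested.

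KO against Mixed gave calls for the same 5 members, and it shares the KO libraries with the comparison above. Mixed and KO differed wholly in labelled age, so an age adjustment between them comes only from WT 1 against WT 2 and WT 3. Gbp4 was 5.17, 5.6 and 5.24 CPM in the 3 Mixed libraries, 3.37-fold below KO (log2 fold change 1.75, SE 0.166, adjusted p = 2.24e-08). Gbp9 was 25, 25.9 and 25.4 CPM in Mixed and 1.8-fold higher in KO (adjusted p = 1.56e-07), Gbp8 was 1.81-fold higher (0.00278) and Gbp2 1.45-fold higher (0.00017). Gbp7 was 1.39-fold lower in KO (adjusted p = 4.57e-05). These 5 of 8 calls compare with 36.7% of all genes (18.2% higher, 18.5% lower). With age as a covariate only Gbp4 and Gbp9 remained called. Gbp2 (adjusted p = 0.0664), Gbp7 (0.0731) and Gbp8 (0.145) were lost, and the all-gene count went from 5365 to 1978. Gbp3 was again called lower in KO on the TPM scale (-0.30, adjusted p = 0.0032) but not on counts (-0.14, adjusted p = 0.161). Of 8 monocyte markers, 3 were higher and 3 lower in KO than Mixed (all genes 18.2% and 18.5%). Of 6 dendritic cell markers 5 were higher and 1 lower, and of 6 neutrophil markers 3 and 0. The part of these in the Gbp values was not tested.

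**Figure D2:**
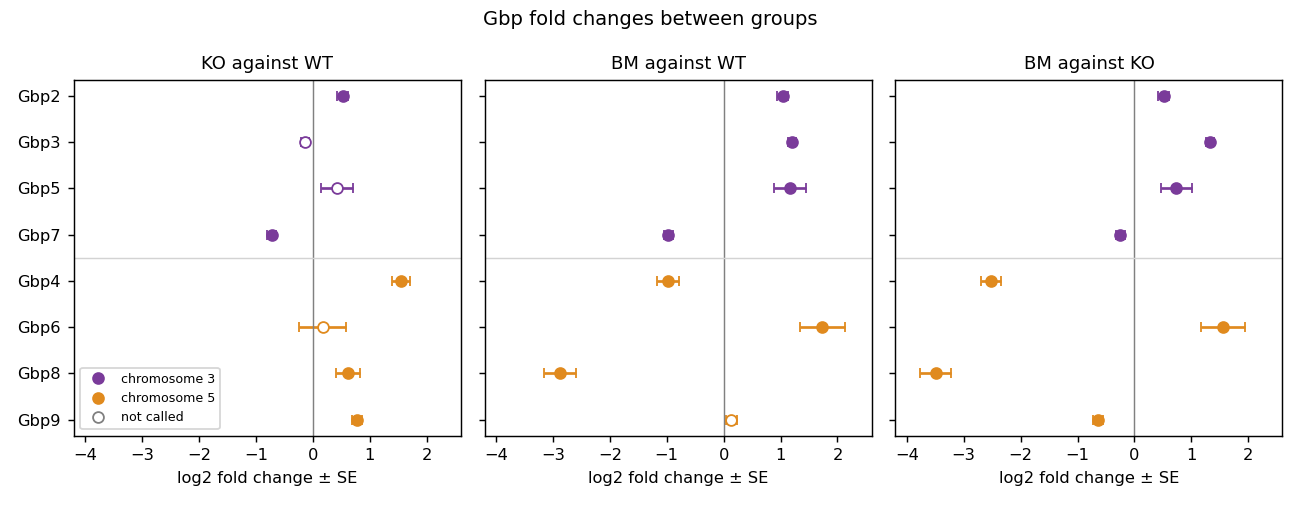
Log2 fold change ± SE (edgeR) of each Gbp gene in KO against WT, BM against WT and BM against KO; filled points are called at an adjusted p under 0.05, open points are not. Gbp4 lay at 1.55 in KO against WT and at -0.98 in BM against WT, while Gbp7 lay below 0 in all 3 panels.

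Bone marrow monocytes and WT fetal liver monocytes differed in most of the family, and members of both clusters went in both directions. Gbp2, Gbp3, Gbp5 and Gbp6 were higher in BM, Gbp7, Gbp4 and Gbp8 were lower, and Gbp9 did not pass the test. In this comparison 64% of all genes were called, 32.1% higher and 31.9% lower, so 7 of 8 members is a count against a high background. The median log2 fold change was 1.10 over the chromosome 3 members and -0.42 over the chromosome 5 members, beside 0.003 over all genes tested. It shares the WT libraries with KO against WT.

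Gbp3 was 75.3, 79.1 and 75.8 CPM in BM 1 to 3, all above the 31 to 35.8 CPM of WT. The rise was 2.3-fold (log2 fold change 1.20, SE 0.0722, adjusted p = 3.05e-12). Gbp2 measured 32.8, 38.5 and 32.4 CPM in BM, 2.05-fold over WT with no overlap (log2 fold change 1.04, SE 0.0987, adjusted p = 5.8e-09). Gbp5 was 4.84, 3.73 and 2.58 CPM in BM, a wide spread that still lay above WT (2.24-fold, log2 fold change 1.16, SE 0.279, adjusted p = 0.000983). Gbp6 was 2.53, 2.75 and 2.58 CPM in BM, from 46 to 59 counts per library, and was 3.32-fold higher than in WT (log2 fold change 1.73, SE 0.394, adjusted p = 0.000601). Gbp6 was the only chromosome 5 member called higher, and its counts are the least certain by shared sequence. Gbp7 fell to 67.2, 76.9 and 69.1 CPM in BM, 1.96-fold below WT (log2 fold change -0.97, SE 0.0785, adjusted p = 5.45e-10).

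Gbp8 had the largest difference of the family. Its BM libraries held 6, 13 and 16 counts, or 0.33, 0.606 and 0.794 CPM, and it was 7.33-fold lower than in WT (log2 fold change -2.87, SE 0.276, adjusted p = 6.68e-09). Gbp4 was 2.91, 3.36 and 3.08 CPM in BM and 1.97-fold lower than in WT (log2 fold change -0.98, SE 0.186, adjusted p = 9.39e-05), with no overlap. Gbp9 was 27.4, 30.4 and 29.9 CPM in BM, within the WT range. Its log2 fold change was 0.14 (SE 0.0929, adjusted p = 0.2), and without WT 2 it was called higher (0.25, adjusted p = 0.03). Of the 3 chromosome 5 genes that share exon sequence, Gbp8 and Gbp4 were thus lower in BM and Gbp9 was not called. Tissue and stage of life differ together between BM and fetal liver and cannot be told apart. Erythroid markers summed to 2.97 to 11.7 CPM in BM and 519 to 994 in WT, liver parenchyma markers to at most 0.385 CPM in BM (Alb and Apoa1 at 0) and 7.91 to 58.8 in WT, and neutrophil markers to 333 to 506 CPM in BM. Higher in BM were the sums of the B cell markers (4.38 to 6.25 against 0.423 to 0.536 CPM in WT) and the T and NK cell markers (1.17 to 1.76 against at most 0.094). So were those of the conventional dendritic cell markers (83 to 93 against 17.8 to 22.2) and the tissue macrophage markers (308 to 321 against 169 to 212). Adgre1, with a mean of 315 CPM in BM, made up most of the macrophage sum. Of the 3 macrophage markers tested, 1 was called higher and 2 lower. Of 8 monocyte markers, 6 were called higher in BM and 1 lower (all genes 32.1% and 31.9%). The part of these in the Gbp values was not tested.

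BM and Mixed, which shares BM with the comparison above, gave calls for the same 7 members in the same directions (58.4% of all genes called, 29.5% higher and 28.9% lower). The folds were 2.29 for Gbp3, 2.07 for Gbp2, 1.84 for Gbp5 and 4.1 for Gbp6, higher in BM. They were 1.65 for Gbp7, 1.71 for Gbp4 and 6.22 for Gbp8, lower in BM. Gbp9 was 1.15-fold higher (adjusted p = 0.0639) and was called without BM 1 (0.0428) or WT 2 (0.0452). Gbp5 was lost without BM 1 (adjusted p = 0.0654), and Gbp4 on the log2(TPM + 1) scale (0.0613).

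Set against KO, the BM libraries were called different in all 8 members, against 63.8% of all genes (31.8% higher, 32% lower). Gbp8 was 11.3-fold lower in BM than in KO (log2 fold change -3.50, SE 0.269, adjusted p = 1.9e-10) and Gbp4 was 5.76-fold lower (log2 fold change -2.53, SE 0.178, adjusted p = 4.24e-11). Gbp9 was 1.56-fold lower (adjusted p = 2.36e-06). The genes higher in BM were Gbp3 (2.52-fold, adjusted p = 5.19e-13), Gbp6 (2.94-fold, 0.00132), Gbp2 (1.43-fold, 7.79e-05) and Gbp5 (1.66-fold, 0.0221). Gbp5 lost its call without BM 1 (0.138), BM 2 (0.0647) or KO 2 (0.0769) and with no filter on low counts (0.0572). Gbp7 was 1.19-fold lower in BM (adjusted p = 0.00949), but its groups overlapped, and the call was lost without BM 1 (0.0513) or KO 1 (0.0979) and on the log2(TPM + 1) scale (0.738). The median log2 fold change was 0.62 over the chromosome 3 members and -1.58 over the chromosome 5 members.

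Mixed and WT fetal liver monocytes, both with the WT genotype label, gave 0 calls among the 8 members by edgeR's quasi-likelihood test, against 8.07% of all genes (4.21% higher, 3.87% lower). Gbp7 came closest to a call. It was 113, 113 and 126 CPM in Mixed, all below the 136 to 143 CPM of WT, with a log2 fold change of -0.25 (edgeR, SE 0.0768, adjusted p = 0.051). DESeq2 called it lower (adjusted p = 0.032). So did edgeR with no filter on low counts (0.0231), with the 2 groups alone (0.0212), and without KO 1 (0.0234), KO 3 (0.0271) or Mixed 3 (0.0466). The other 7 members had log2 fold changes between -0.31 and 0.29, with overlapping groups. With 3 libraries a group these differences were not detectable, which does not show that the levels are equal. Of 8 monocyte markers, 4 were called higher in Mixed than WT and 0 lower. Neutrophil markers summed to 2636 to 2866 CPM in Mixed and 3340 to 4829 in WT, and liver parenchyma markers to 4.14 to 5.76 and 7.91 to 58.8. No marker of these 2 lists was called. Tissue macrophage markers summed to 228 to 239 CPM in Mixed and 169 to 212 in WT. The part of these in the Gbp values was not tested.

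Across the 4 groups, the levels fell into a few orders. For Gbp7, WT was highest, followed by Mixed, then KO and BM, whose ranges overlapped. Gbp2, in the same cluster, had the reverse order, with WT and Mixed lowest (15.7 to 17.2 CPM), KO between (21.5 to 26.5) and BM highest (32.4 to 38.5). Gbp3 set BM apart from all 9 fetal liver libraries, whose values lay between 29.3 and 35.8 CPM. Gbp4 and Gbp8 both had KO highest and BM lowest. Gbp9 set KO (41.9 to 47.6 CPM) apart from the other 9 libraries (24.2 to 30.5 CPM).

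**Figure D3:**
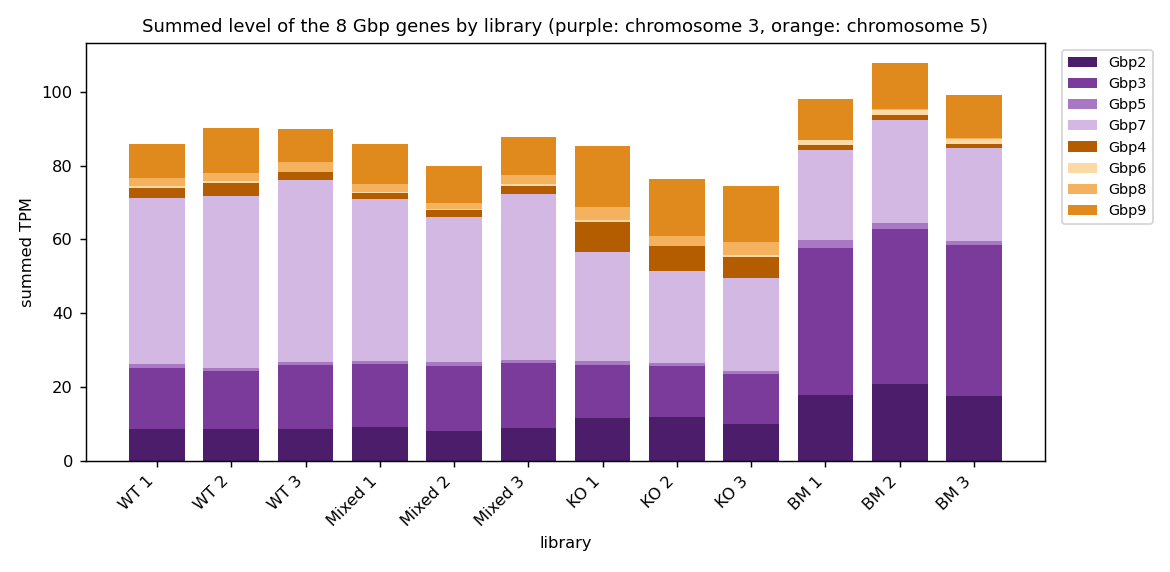
Summed TPM of the 8 Gbp genes in each library (stacked bars from 0), chromosome 3 members in purple and chromosome 5 members in orange. The chromosome 3 part made up 66.3 to 67.2% of the sum in KO and 79.6 to 86% in the other libraries, and Gbp7 made up 51.7 to 54.8% in WT and 25.1 to 25.9% in BM.

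The summed level of the family changed less than its make-up. In CPM the 8 genes summed to 225 to 231 in WT, 199 to 215 in Mixed, 193 to 230 in KO and 213 to 235 in BM, and KO and BM each overlapped WT. In TPM, which weighs genes per length, the sums were 85.8 to 90.2 in WT, 74.4 to 85.3 in KO and 98.1 to 108 in BM, with no overlap between these 3 groups, and 79.8 to 87.6 in Mixed. The chromosome 5 members summed to 65.7, 72 and 75.8 CPM in the KO libraries and to 33.2 to 43.5 CPM in the other 9. The chromosome 3 members made up 66 to 67.1% of the family's CPM in KO, 81.2 to 85.4% in WT, 82.4 to 83.6% in Mixed and 83.2 to 84.4% in BM. In CPM the BM and WT ranges overlapped in the split between clusters, though not in the shares of Gbp7 and Gbp3. In TPM the chromosome 3 share was 85.4 to 86% in BM and 79.6 to 84.4% in WT, without overlap. Gbp7 supplied 59.9 to 62% of the family's CPM in WT, 38.5 to 41.5% in KO and 31.5 to 32.7% in BM, and Gbp3 supplied 14.6 ± 1.08%, 14.4 ± 0.702% and 34.6 ± 0.907% (SD, n = 3). Members are not replicates, so these shares are given without a test.

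KO against WT and BM against WT share the WT libraries, and the counts of the lists below stand beside 18.2% of all genes higher and 19.9% lower in KO, and 32.1% higher and 31.9% lower in BM. Of 10 transcription factors of the interferon response, 9 were higher in KO than WT and 10 in BM than WT, with median log2 fold changes of 1.36 in each. In KO these included Ciita (65.8-fold), the regulator of MHC class II genes, Nlrc5 (4.67-fold), its counterpart for MHC class I, and Irf7 (3.25-fold). Irf1, which drives Gbp genes and is named here after its values were seen, was 62.9 to 75.4 CPM in WT, 85.9 to 93.9 in KO and 74.8 to 88.2 in BM. It was called higher in KO (1.33-fold, adjusted p = 0.000165) and in BM (1.24-fold, adjusted p = 0.00138), though the BM and WT ranges overlapped. Among 7 receptors and kinases, 3 were higher and 1 lower in KO, and 6 were higher in BM. Jak2, the kinase at the interferon gamma receptor, was 2.29-fold higher in KO (adjusted p = 2.66e-08) and not called in BM, and Ifngr1, a chain of that receptor, was 1.4-fold higher in KO and 1.59-fold higher in BM. Of 11 ligand genes only Il18 and Il27 passed the filter. Il18, which induces interferon gamma in lymphocytes, was 2.31-fold higher in KO, and Ifng had 0 counts in every library, which allows up to 0.127 to 0.167 CPM (3 counts, counting error only). Inhibitors gave 2 higher of 6 in KO, led by Usp18 (4.77-fold), and 3 higher and 3 lower in BM.

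The immunity-related GTPases, some of which work on the same vacuoles, were called in 1 direction only. Of 10 tested, 9 were higher and 0 lower both in KO (18.2% of all genes higher) and in BM (32.1% higher), with median log2 fold changes of 0.97 and 1.32. The named members were Tgtp1 (13-fold in KO, 5.86-fold in BM), Tgtp2 (3.19-fold and 23.1-fold), Irgc1 in KO (3.68-fold) and Ifi47 in BM (7.41-fold). Tgtp1 and Tgtp2 are near-identical copies, so the split between them is uncertain. Of the Gbp genes, only Gbp2 was called higher in both. The difference between these families was not tested.

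Among 15 inflammasome and pyroptosis genes, 3 were higher and 4 lower in KO, shares near the 18.2% and 19.9% of all genes. Casp4, which encodes the sensor of bacterial lipopolysaccharide that Gbp proteins serve, was 1.89-fold higher (16.1 ± 2.12 against 8.52 ± 1.46 CPM, SD, n = 3), while Ninj1, which ruptures the membrane, and Mefv, the pyrin gene, were 1.77-fold and 1.53-fold lower. In BM 12 were higher and 2 lower (32.1% and 31.9% of all genes), including Mefv (5.01-fold) and Casp4 (3.69-fold). Of 15 genes for LC3 conjugation and ubiquitin targeting, which load Gbp proteins onto vacuoles, 8 were higher and 2 lower in KO (all genes 18.2% and 19.9%) and 9 and 2 in BM (all genes 32.1% and 31.9%), and Rnf213, a ubiquitin ligase, was 1.86-fold and 1.54-fold higher. For protein prenylation, which anchors Gbp2 and Gbp5 to membranes, 0 of 6 were higher and 2 lower in each: Zmpste24 and Fnta in KO, Zmpste24 and Fntb in BM.

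**Figure D4:**
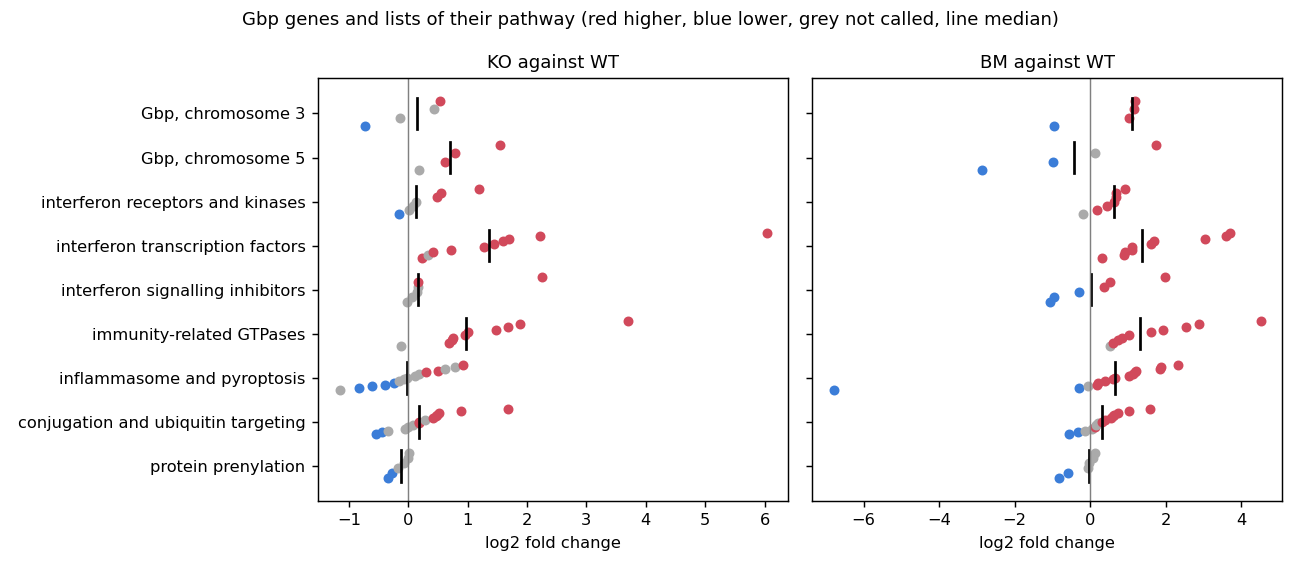
Log2 fold change of each tested gene of the Gbp clusters and of 7 lists of their pathway in KO against WT and BM against WT (red called higher, blue called lower, grey not called, black line the median; the axes differ in range). The transcription factor and immunity-related GTPase lists held no gene called lower, while the chromosome 5 Gbp median lay at 0.70 in KO and -0.42 in BM.

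In Mixed against WT, where 4.21% of all genes were higher and 3.87% lower, edgeR called 2 of 10 transcription factors higher (Irf2 and Irf8, 1.19-fold and 1.15-fold), 1 of 10 immunity-related GTPases higher (Irgc1, 1.92-fold) and 1 of 7 receptors and kinases higher (Tyk2, 1.3-fold). Inflammasome genes gave 2 higher of 15 (Mefv and Gsdmd) and inhibitors 1 of 6 (Ptpn6).

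The genes outside the family whose levels followed a member most closely, by Pearson r of log2 CPM over the 12 libraries among 9994 genes, are a description, since the libraries form 4 groups and share any difference between them. For Gbp4 they were Tlr3 (r = 0.987), a sensor of double-stranded RNA, and Nrg1 (0.984). Tlr3 was at 4.02 CPM in WT, 2.87 in Mixed, 32.3 in KO and 1.19 in BM. For Gbp9 they were Phf11c (0.979) and the interferon-induced Isg15 (0.976), the latter at 16.2, 12.1, 65.7 and 22.4 CPM in the same order. Gbp2 had Asb13 (0.990) and Ifi209 (0.985), an interferon-inducible gene at 64.8, 57.6, 172 and 482 CPM. Gbp3 had Tbc1d1 (0.995) and the chemokine gene Ccl6 (0.994). Gbp7 had Snhg15 (0.973) and Ndufaf4 (0.973), a mitochondrial assembly factor that went from 38.5 CPM in WT to 27.6, 17.7 and 12.8 CPM. Gbp8 had Gca and Ttyh2 (both 0.988). Gbp6 had Vcpip1 (0.951) and Ap5m1 (0.950), and Gbp5, a low gene, had Gcc1 (0.923) and Cyth2 (0.912).

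The 4 other Gbp genes of the table did not pass the filter. Gbp2b, between Gbp3 and Gbp2 on chromosome 3, had 8, 11 and 5 counts in the KO libraries, 1 count over the 3 WT libraries, 2 over Mixed, and 7, 1 and 0 in BM. With the 3 libraries of each group pooled, the ratio of KO to WT was 22.9 after scaling. Its 95% exact interval, from 3.73 to 940, covers counting error only. Of these 4 genes the ratio was computed for Gbp2b alone, which its counts set apart, so the interval describes these counts and is not a test. All 3 KO libraries were above all WT and Mixed libraries in Gbp2b, at 0.211 to 0.578 CPM. Gbp10 had 6 counts in WT 3, 9 in BM 1 and 1 in BM 3. Gbp11, annotated as a polymorphic pseudogene, had at most 7 counts in a library, and the pseudogene Gbp2-ps had 0 in all 12, which allows up to 0.127 to 0.167 CPM at 3 counts per library. Gbp6, whose exon words were shared most with Gbp10, had 6 counts in WT 3, its lowest of the 12 libraries, and 46 in BM 1, at 2.53 CPM beside 2.75 and 2.58 CPM in BM 2 and BM 3.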

How the data were processed

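The authors deposited a series table of estimated counts per gene and a table of TPM. The submitters' processing notes list Salmon, STAR, DRAGEN and Subread's featureCounts and the build mm10, without roles. Of the nonzero counts, 28.5% were not whole numbers (tolerance 1e-06). Per the labels' protocols, the library kit was SMARTer Ultra Low, which does not keep strand, so antisense reads cannot be told apart. Here, 287 repeated entries were removed and counts rounded. edgeR 4.0.16 (R 4.3.3) kept genes by filterByExpr (minimum count 10, total 15), leaving 14618 and removing 40869, and scaled by TMM. One quasi-likelihood fit to the 12 libraries with a mean per group gave the comparisons (biological coefficient of variation 0.0917), two-sided and adjusted by Benjamini-Hochberg over all tested genes, called under 0.05. SE is the log2 fold change divided by the root of the F statistic. CPM uses TMM-scaled library sizes, and correlations a prior count of 2. Symbols were placed through GENCODE, where 99.5% of identifiers matched, and RefSeq promoters matched 4 of 8 members. Genes named are the 8 members, other Gbp genes, the 2 closest genes by correlation for each member and up to 3 called genes of each list by size of change. Zeb2, Irf1, Ifng and the markers Cd79a, Pax5, Ebf1, Emcn, Cd3e, Ngp, Spi1, Ccr2, Fcgr1, Alb and Apoa1 are named outside this rule, and some genes are not reported here. Members and lists were chosen with earlier results of these data known. The fit was tested on simulated data. Alternatives were DESeq2 1.42.0, its size factors in edgeR, no filter, the compared groups alone, a replicate block, age as a covariate, limma 3.58.1 on the deposited TPM as log2(TPM + 1) and each library left out.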

Additional observations from a re-analysis of the deposited data

How the results depend on the processing

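All 32 called fold changes kept their direction under each alternative setting run for them and under the 12 that left out a library, and 24 of the 32 kept their call in each. There were 7 settings for the fetal liver comparisons and 6 for those with BM, which has no age label and so no age covariate. Over 312 values of the alternatives, 293 kept direction and call, 8 lost a call, 5 gained one and 6 changed sign, none of these 6 called. With age as a covariate the sign changed for Gbp6 in KO against WT (log2 fold change -0.24) and KO against Mixed (-0.19) and for Gbp5 in KO against Mixed (-0.28). On log2(TPM + 1) it changed for Gbp5 in KO against Mixed (-0.032) and for Gbp2 (0.033) and Gbp9 (0.037) in Mixed against WT. The cause was not tested. Calls among the members in Mixed against WT were 0 in the fit reported and 1 (Gbp7) with DESeq2, with no filter and with the 2 groups alone. In KO against Mixed there were 5, and 2 with age as a covariate.

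Leaving out 1 library at a time gave 0 to 1 calls in Mixed against WT, and log2 fold changes from -0.24 to 0.43 for Gbp6 in KO against WT. In Mixed against WT they ran from -0.037 to 0.027 for Gbp2, -0.048 to 0.054 for Gbp3, -0.38 to 0.05 for Gbp4 and -0.135 to 0.046 for Gbp9. Over all genes, calls in Mixed against WT were 1180, and 399 with age as a covariate, 681 with limma and 414 to 1457 with a library left out. No pairing by the titles' replicate numbers was seen. Deviations of same-numbered libraries correlated at -0.0353 to 0.0693 (18 pairs, median 0.00858), and those of other libraries at -0.0656 to 0.0456 (36 pairs, median 0.00184). Of 12 libraries, 4 correlated best with their own number. With 3 libraries a group these values cannot exclude a pairing. With a replicate block, the members called were 5 in KO against WT, 0 in Mixed against WT, 7 in BM against WT, 5 in KO against Mixed, 7 in BM against Mixed and 8 in BM against KO, as without it. Depth limits Gbp6 (6 to 59 counts per library) and Gbp8 in BM (6 to 16 counts).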

Other observations

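Within the KO group, KO 1 was the highest KO library for 6 of 8 members and KO 3 the lowest for 5. Within BM, BM 2 was highest for 6 and BM 1 lowest for 6. How often these libraries were highest or lowest over all genes was not counted. These counts are therefore not read as a trait of the family.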
